A study of Homo sapiens with 21 samples.

Results

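The 37 mitochondrially encoded genes, taken as every feature whose name begins with MT-, were examined among the 61268 features of an RNA count table from differentiating human cells. They comprise 13 protein genes, 2 rRNA genes and 22 tRNA genes, and all 37 lie on the mitochondrial chromosome. The cells were H9 human embryonic stem cells carrying the inducible transgene TRE3G 2xFLAG-GSX2 WT, which doxycycline switches on. GSX2 is a transcription factor that patterns the embryonic lateral ganglionic eminence (LGE). They were grown in Essential 8 Flex medium and driven toward LGE-like progenitors with LDN193189, SB431542 and XAV939, then LDN193189 and SB431542, then IWP2 and Activin A. Doxycycline at 100 ng/mL (Dox) was given from day 10 to some cultures and withheld from others (NoDox), and both were collected at 12, 24 and 48 h. Day 10 cultures were the starting point, which makes 7 groups of 3 libraries. The labels' protocol gives a 12 h exposure, so the 24 h and 48 h Dox groups would follow withdrawal of the drug. Reads of the transgene averaged 995 ± 140, 19.6 ± 5.92 and 0.841 ± 0.0540 CPM (counts scaled to a library total of 1e6) of the plain library total in Dox cultures at 12, 24 and 48 h (SD, n = 3 each), and 0.137 to 0.309 CPM in the group means of the NoDox and day 10 cultures. All groups carried the transgene and no group had doxycycline without it, so the drug and the transgene cannot be told apart in any comparison of Dox with NoDox.

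Human mitochondria keep a small circular genome that encodes core subunits of the respiratory chain and ATP synthase, with the rRNAs and tRNAs needed to translate them. Each strand is copied as a long transcript, from which RNase P and ELAC2 cut out the tRNAs and so release the rRNAs and mRNAs between them. Most mRNAs then receive a short poly(A) tail, that of MT-ND6 being the known exception, and their stability depends on binding by LRPPRC and SLIRP. Doxycycline belongs to the tetracyclines, which bind bacterial ribosomes and can also slow translation on the mitochondrial ribosome. The comparison of Dox with NoDox bears on whether the RNAs themselves differed, and the 3 classes were set side by side across the 7 groups.

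The sequences below show the gene borders on which the later values turn, from GENCODE release 29 transcripts on GRCh38, whose start, end and strand matched the count table for 37 of 37 genes. MT-ATP8 and MT-ATP6 share 46 bases (chrM:8527-8572, plus strand), shown with the start codon of MT-ATP6 in capitals. MT-ND4L and MT-ND4 share 7 bases (chrM:10760-10766, plus strand), and a read that covers such a shared stretch cannot be given to 1 gene by position alone. The last 30 bases of 6 protein genes follow with the stop codon in capitals, or the part of it that the genome holds. In 6 of the 13 protein genes the annotated end holds an incomplete stop codon (5 end in T and 1 in TA), which the poly(A) tail completes. MT-ND6 is the protein gene on the minus strand and ends in AGG, while MT-CO1 ends in AGA. MT-TL1 (chrM:3230-3304), shown whole in lower case, begins directly after MT-RNR2 and is known to hold a site that MTERF1 binds.
MT-ATP8/MT-ATP6: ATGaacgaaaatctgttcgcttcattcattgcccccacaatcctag
MT-ND1 (chrM:4233-4262): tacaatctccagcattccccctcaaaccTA
MT-ATP6 (chrM:9178-9207): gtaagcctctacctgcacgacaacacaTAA
MT-ND3 (chrM:10375-10404): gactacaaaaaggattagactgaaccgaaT
MT-ND6 (chrM:14149-14178): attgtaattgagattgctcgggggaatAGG
MT-CO1 (chrM:7416-7445): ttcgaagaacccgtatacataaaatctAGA
MT-CYB (chrM:15858-15887): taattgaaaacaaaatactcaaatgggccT
MT-TL1: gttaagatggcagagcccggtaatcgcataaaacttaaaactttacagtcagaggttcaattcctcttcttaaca
MT-ND6 also differs in base content, with 35.6% G in the transcript against 6.28% to 16.2% in the 12 protein genes of the plus strand.

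The libraries held 14.4 to 33.8 M counted reads, of which 1.76% to 2.84% fell on mitochondrially encoded genes. RNA was selected by poly(A), so levels are of RNA that this selection captured, and the rRNA values are not total rRNA. Over the whole series 19655 features were tested with edgeR's quasi-likelihood F test, and a gene was called at a Benjamini-Hochberg adjusted p below 0.05 over all of them. The median log2 fold change of all genes tested lay between -0.019 and 0.0083 in every comparison. Compared with the other replicates of their group by chi-square per degree of freedom, 2 libraries stood apart. These were 12 h Dox replicate 3 (27.8 and 17.4) and day 10 replicate 1 (11.5 and 15.6), against 1.87 to 5.85 elsewhere, and results that rest on them are also given without them. Of the fixed markers, the telencephalic progenitor genes SOX2 and VIM had group means of 135 to 1140 and 1198 to 5311 CPM. Of 4 pluripotency markers, POU5F1 and NANOG, the defining genes, stayed at or below 0.188 CPM, while DPPA4 had group means of 91.9 to 155 CPM and LIN28A 42.5 to 82.5 CPM. COL1A1, a mesenchymal gene, lay at 426 to 1136 CPM. In bulk libraries, fewer cells of a type and less RNA per cell cannot be told apart.

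The tRNA class was almost without reads. Of the 22 tRNA genes, which are 59 to 75 bases long, 5 had any read and 17 had none in 21 libraries. They held 7 reads in all, 3 of them for MT-TV in NoDox 24 h replicate 1, and 1 each for MT-TF, MT-TL1, MT-TI and MT-TL2. None passed the filter on low counts, so no tRNA gene was tested, and a gene with 0 reads could lie as high as 0.0886 to 0.208 CPM by library, from 3 counts and for counting error only. All 13 protein genes and both rRNA genes passed it.

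The protein and rRNA classes followed different courses. Reads of the 13 protein genes made up 2.09% ± 0.188 of all counts in Dox and 1.96% ± 0.0600 in NoDox cultures at 12 h (SD, n = 3 each). At 24 h they made up 1.77% ± 0.0718 in Dox and 1.65% ± 0.0277 in NoDox cultures. By 48 h they had 1.27% ± 0.0659 in Dox and 1.34% ± 0.0511 in NoDox cultures, and both ranges lay below that of the day 10 cultures (2.14% to 2.33%). The 2 rRNA genes instead had their lowest share at 12 h and a higher one at 48 h. They held 0.349% ± 0.0571 of all counts in Dox and 0.294% ± 0.0136 in NoDox cultures at 12 h, and 0.357% ± 0.0323 in Dox and 0.331% ± 0.0131 in NoDox cultures at 24 h. At 48 h they held 0.567% ± 0.0170 in Dox and 0.490% ± 0.0343 in NoDox cultures, against 0.544% ± 0.0698 at day 10. Day 10 replicate 1, which stood apart, held 0.624%, against 0.506% and 0.501% in replicates 2 and 3. Within mitochondrial reads the rRNA share was therefore 14.3% ± 0.920 in Dox and 13.04% ± 0.354 in NoDox cultures at 12 h. It was 16.8% ± 1.65 in Dox and 16.7% ± 0.776 in NoDox cultures at 24 h, and 30.8% ± 1.22 in Dox and 26.7% ± 2.11 in NoDox cultures at 48 h. The lowest Dox library at 48 h (29.5%) lay above every NoDox library, and the lowest NoDox library at 48 h (24.8%) above every library of the other times. These sums over members were not tested.

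**Figure D1:**
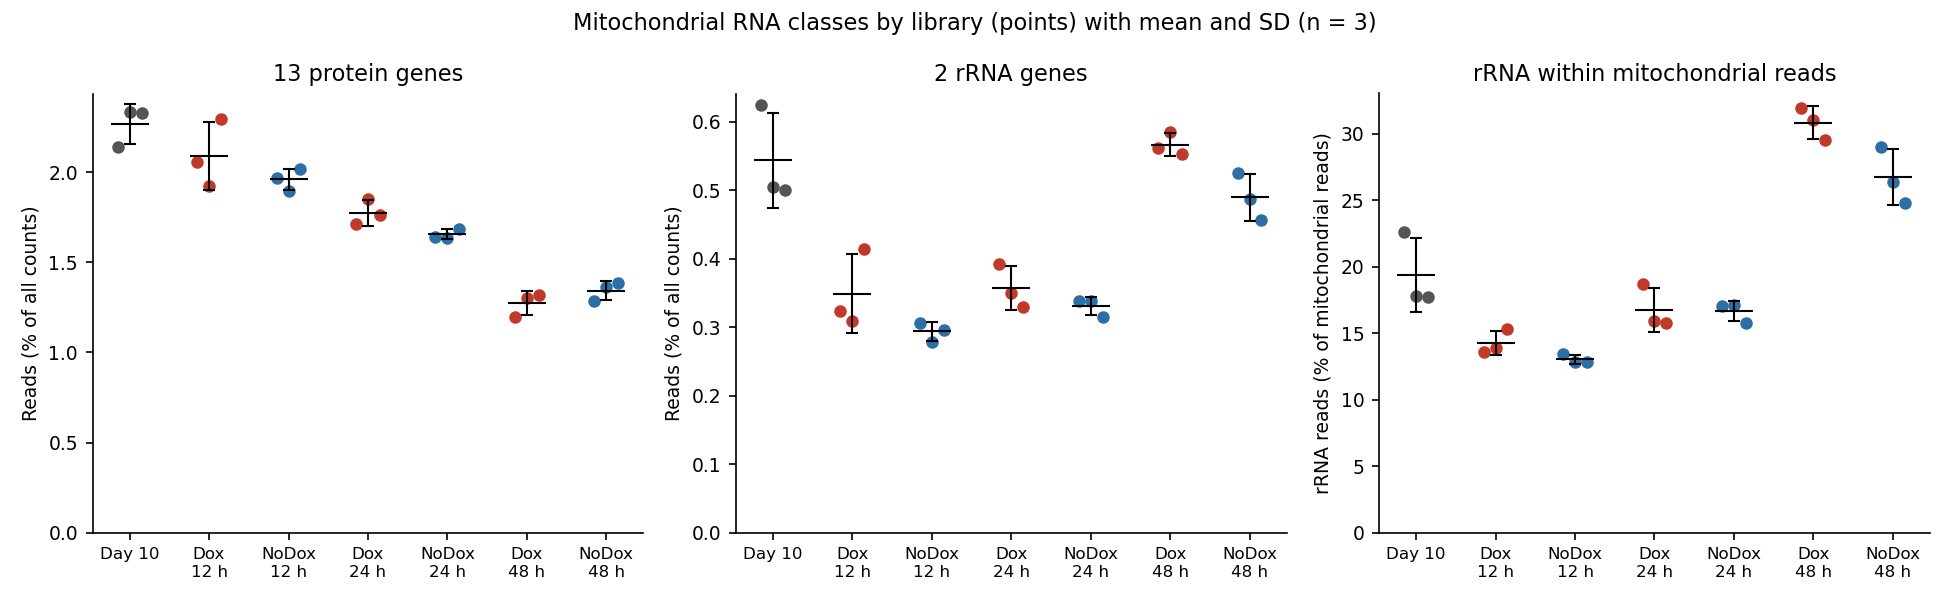
Reads of the 13 protein genes (left) and the 2 rRNA genes (middle) as percent of all counts, and rRNA as percent of mitochondrial reads (right), in each of 21 libraries by group; points are libraries, bars the mean and SD (n = 3). The protein share is lowest at 48 h in both arms, while the rRNA share of mitochondrial reads is highest there (29.5% to 32.0% in Dox, from 24.8% up in NoDox).

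By complex, the 3 cytochrome c oxidase genes (complex IV) held 37.0% to 43.9% of mitochondrial reads over all libraries and the 7 NADH dehydrogenase genes (complex I) 23.8% to 33.9%. MT-CYB, the complex III subunit, held 2.27% to 6.49%, and the ATP synthase genes MT-ATP6 and MT-ATP8 (complex V) together 4.05% to 9.47%. Complexes I, III and V had their lowest mean shares at 48 h, where the rRNA share of the same reads was highest. The complex I genes took 24.7% ± 0.769 in Dox and 25.6% ± 0.550 in NoDox cultures at 48 h, against 26.6% ± 2.42 at day 10. Complex IV was lowest at 48 h in Dox cultures (37.8% ± 0.143) but not in NoDox cultures (39.9% ± 1.11). MT-CYB took 2.37% ± 0.104 in Dox and 2.67% ± 0.259 in NoDox cultures at 48 h, against 4.14% ± 0.685 at day 10. The complex V pair took 4.33% ± 0.254 in Dox and 5.03% ± 0.386 in NoDox cultures at 48 h, against 7.39% ± 0.858 at day 10. Day 10 replicate 1, which stood apart, had 23.8% for complex I, 3.35% for MT-CYB and 6.40% for complex V. Day 10 replicates 2 and 3 had 28.0% and 28.0%, 4.51% and 4.56%, and 7.83% and 7.94%. The 23.8% was the lowest complex I share of any library, below every 48 h library.

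Levels below are CPM scaled by trimmed mean of M values (TMM), and levels of different genes are set side by side only per kilobase of gene. Over the 21 libraries the highest mean levels were those of MT-CO1 (3069 CPM per kb) and MT-CO3 (2968 CPM per kb), followed by MT-CO2, MT-RNR2, MT-ND4, MT-ATP6, MT-ND1, MT-ATP8, MT-CYB, MT-ND2, MT-ND4L, MT-ND3, MT-ND5 and MT-RNR1 (527 CPM per kb). MT-ND6 was lowest, at 51.6 CPM per kb, and its range of 24.0 to 77.0 overlapped that of no other tested member. Neighbours in the day 10 order overlapped in range for MT-CO1 and MT-CO3, MT-CO2 and MT-RNR2, and MT-ATP6 and MT-ND4. So did MT-ND5 and MT-RNR1, and each next pair from MT-ATP8 through MT-ND2, MT-CYB and MT-ND4L to MT-ND3. In both 48 h groups MT-RNR2 was the first in order. Its per-length range did not overlap that of the next gene, MT-CO1, in Dox cultures, and did so in NoDox cultures. The 2 rRNA genes, adjacent and cut from the same precursor, differed from each other, since MT-RNR2 had 3.62 to 5.40 times the level of MT-RNR1 per kb in the group means. The level of all 15 tested members differed among the 7 groups, as did that of 86.4% of all genes tested.

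After 12 h of doxycycline no mitochondrial gene was called against NoDox, beside 39.7% of all genes tested (19.8% called higher and 19.9% lower). The median log2 fold change was -0.08 for the 13 protein genes and 0.12 for the 2 rRNA genes. MT-CO1, the catalytic subunit of cytochrome c oxidase, had 3766, 3891 and 4676 CPM in Dox cultures, against 4321, 4278 and 4579 CPM in NoDox cultures. MT-RNR2, the large ribosomal subunit RNA, had 2444, 2328 and 3113 CPM in Dox cultures, against 2618, 2397 and 2586 CPM in NoDox cultures. In both genes the third Dox library was the highest and the groups overlapped. The 15 fold changes ran from -0.20 to 0.19 and the outermost bounds of their 95% intervals were -0.48 and 0.54. The interval of MT-CO3 was narrower, from -0.28 to 0.0028. MT-CO3 alone had an unadjusted p below 0.05, against 47.3% of all genes, and was also the 1 member that DESeq2's Wald test called. The zero rested on 12 h Dox replicate 3. Without that library all 15 fold changes were below 0, and 4 members were called lower, namely MT-CO1 (-0.20 ± 0.06, edgeR adjusted p = 0.0119), MT-CO2 (-0.23 ± 0.07, 0.00586), MT-CO3 (-0.20 ± 0.06, 0.0133) and MT-ND3 (-0.23 ± 0.07, 0.00837). Without replicate 1, MT-ND2 (-0.30 ± 0.11), MT-ND4L (-0.34 ± 0.09) and MT-ND5 (-0.30 ± 0.11) were called instead. The scaling also bears on this time point. With library totals in place of TMM, the median of all genes rose by 0.178 and that of the protein genes was 0.10 in place of -0.08, and MT-RNR2 was called higher (0.23 ± 0.09, adjusted p = 0.0349). The sign of the protein median thus followed the scaling, while it lay below the median of all genes under both (-0.08 beside 0.0083 with TMM, and 0.10 beside 0.186 with library totals).

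At 24 h 3 protein genes were higher in Dox cultures and none was lower, 3 of 15 against 33.9% of all genes called in either direction and 17.0% called higher. All 15 fold changes were above 0, with a median of 0.15 for the protein genes and 0.19 for the rRNA genes. MT-ND6, a complex I subunit, had 25.3, 28.9 and 28.8 CPM in Dox cultures, against 12.6, 19.0 and 19.3 CPM in NoDox cultures. The groups did not overlap, and the log2 fold change was 0.72 ± 0.15 (edgeR adjusted p = 6.6e-04, higher in 3 of 3 libraries). The MT-ND6 mRNA is the known exception to poly(A) tailing, and RNA was selected by poly(A). These values are therefore of RNA that the selection captured and may not follow the total MT-ND6 mRNA. The Dox level of MT-ND6 at 24 h (27.7 ± 2.08 CPM) was close to that at 12 h (28.6 ± 3.80 CPM in Dox cultures), while NoDox cultures had 17.0 ± 3.79 CPM at 24 h and 32.3 ± 3.48 CPM at 12 h.

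MT-ND1, a membrane subunit of complex I, had 978, 1052 and 979 CPM in Dox cultures, against 772, 831 and 849 CPM in NoDox cultures at 24 h. Every Dox library exceeded every NoDox library (0.30 ± 0.08, edgeR adjusted p = 0.00312). MT-ATP6, the proton channel subunit of ATP synthase, had 1298, 1477 and 1395 CPM in Dox cultures, against 1066, 1063 and 1181 CPM in NoDox cultures. These groups were also apart (0.33 ± 0.09, edgeR adjusted p = 0.00476). MT-ATP8, whose gene overlaps MT-ATP6, had 191, 206 and 196 CPM in Dox cultures, against 161, 163 and 176 CPM in NoDox cultures, and a fold change of 0.25 that was not called. In all, 8 of 15 members had groups that did not overlap at 24 h, beside 52.0% of all genes. The calls on MT-ND6, MT-ND1 and MT-ATP6 were kept when any single library was left out. The log2 fold change of MT-ATP6 then lay between 0.29 and 0.38 and that of MT-ND1 between 0.26 and 0.32. That of MT-ND6 varied most, between 0.53 and 0.82. The count was 8 when the 2 groups were fitted alone.

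**Figure D2:**
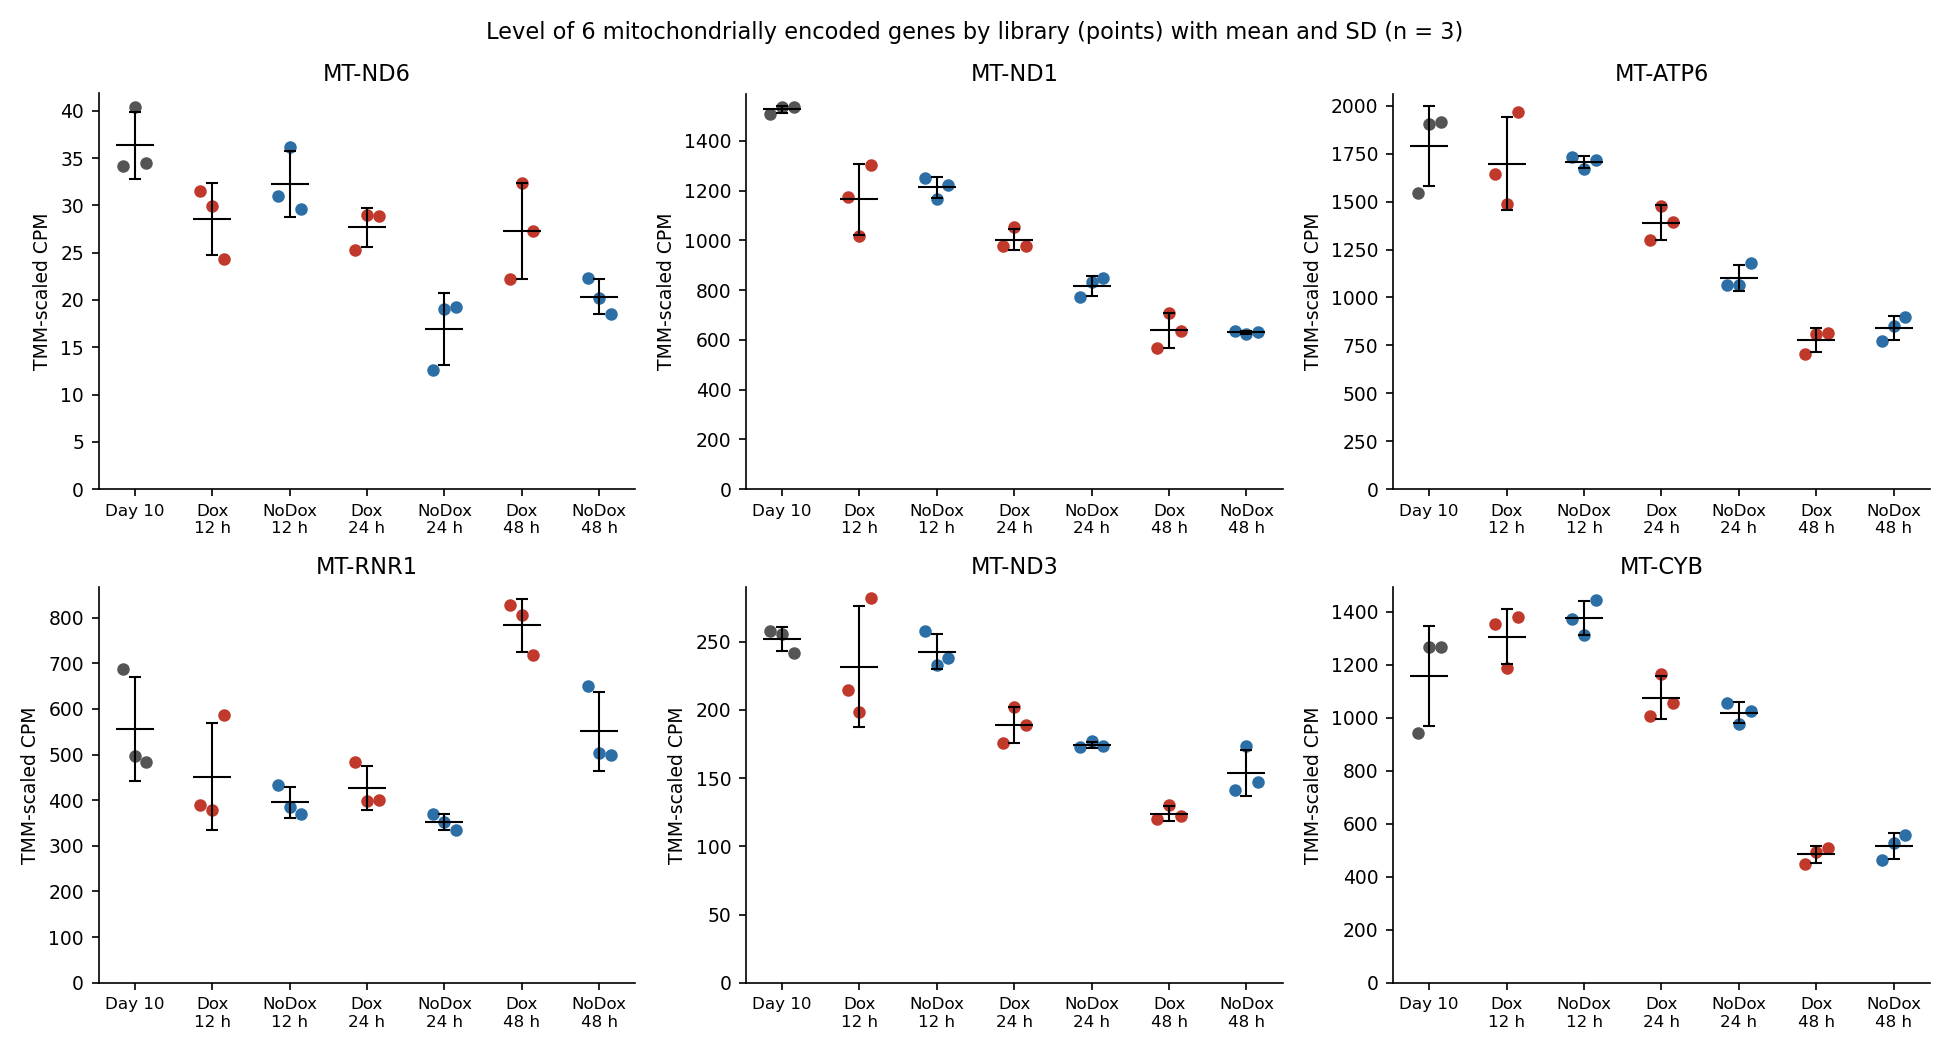
TMM-scaled CPM of 6 members in each of 21 libraries by group, with mean and SD (n = 3). At 24 h the Dox libraries of MT-ND6, MT-ND1 and MT-ATP6 all lie above the NoDox libraries, at 48 h those of MT-RNR1 lie above and those of MT-ND3 below, and MT-CYB is at 449 to 557 CPM in all 48 h libraries.

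At 48 h 1 rRNA gene was higher and 1 protein gene lower in Dox cultures, 2 of 15 beside 18.2% of all genes (9.23% called higher and 8.94% lower). MT-RNR1, the small ribosomal subunit RNA, had 827, 807 and 718 CPM in Dox cultures, against 651, 504 and 498 CPM in NoDox cultures. Its groups were apart, with a log2 fold change of 0.51 ± 0.16 (edgeR adjusted p = 0.0392). MT-RNR2 had 5486, 5677 and 5350 CPM in Dox cultures, against 4940, 4617 and 4267 CPM in NoDox cultures, also apart, but its fold change of 0.26 was not called. MT-ND3, a small complex I subunit, had 120, 130 and 122 CPM in Dox cultures, against 141, 173 and 147 CPM in NoDox cultures (-0.31 ± 0.09, edgeR adjusted p = 0.0209). MT-ND6 had 22.2, 32.3 and 27.2 CPM in Dox cultures, against 22.3, 20.2 and 18.6 CPM in NoDox cultures, and its fold change of 0.42 was not called. The remaining protein genes ran from -0.25 to 0.09. Both calls were close to the threshold. That on MT-RNR1 was lost without Dox replicate 1 (0.46, adjusted p = 0.13), Dox replicate 2 (0.48, 0.0993), Dox replicate 3 (0.56, 0.0533), NoDox replicate 2 (0.45, 0.148) or NoDox replicate 3 (0.44, 0.135), with library totals (0.43, 0.0526), and without the filter on low counts (0.50, 0.107). That on MT-ND3 was lost without Dox replicate 1 (-0.30, 0.0786), Dox replicate 3 (-0.31, 0.056) or NoDox replicate 2 (-0.22, 0.156).

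**Figure D3:**
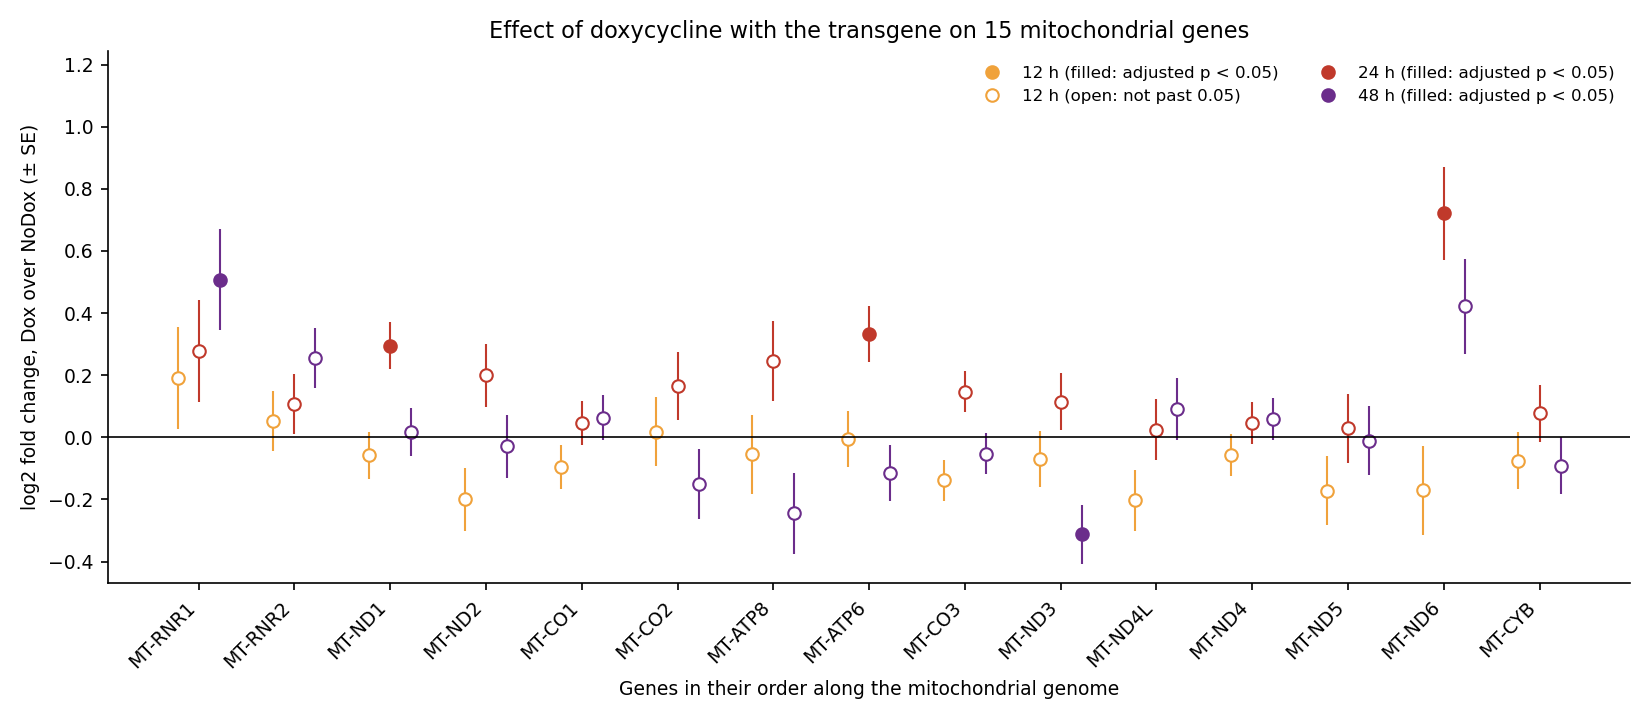
Log2 fold change of Dox over NoDox at 12, 24 and 48 h for the 15 tested members in genome order; points are fitted values, bars the approximate standard error (n = 3 per group), filled points adjusted p below 0.05. Filled points are MT-ND1, MT-ATP6 and MT-ND6 at 24 h (0.30, 0.33 and 0.72) and MT-RNR1 and MT-ND3 at 48 h (0.51 and -0.31).

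The Dox effect itself differed between times for some members. Between 24 h and 12 h it was higher for 5 protein genes, 5 of 15 members beside 30.9% of all genes in either direction and 16.1% higher. These were MT-ND6 (difference 0.89 ± 0.21, edgeR adjusted p = 0.00227), MT-ND2 (0.40 ± 0.14, 0.035), MT-ND1 (0.35 ± 0.11, 0.013), MT-ATP6 (0.34 ± 0.13, 0.0431) and MT-CO3 (0.29 ± 0.09, 0.0196). With library totals the median of all genes moved by -0.193 in this comparison, and MT-ND6 was the 1 member still called. The call on MT-ND6 was kept without any single library. That on MT-ND1 was lost without 12 h Dox replicate 2 (0.27, 0.0524), and that on MT-CO3 without the same library (0.24, 0.0631) or 24 h Dox replicate 2 (0.27, 0.0514). That on MT-ND2 was lost without 12 h Dox replicate 2 or 3, 12 h NoDox replicate 1, 24 h Dox replicate 2 or 3, or 24 h NoDox replicate 1 or 2 (0.31 to 0.41). That on MT-ATP6 was lost without 12 h Dox replicate 1 or 2, any 12 h NoDox library, 24 h Dox replicate 2 or 3, or 24 h NoDox replicate 1 or 2 (0.26 to 0.36). Between 48 h and 24 h the effect was lower for MT-ATP6 (-0.45 ± 0.13, adjusted p = 0.010) and MT-ND3 (-0.43 ± 0.13, 0.0178), 2 of 15 members beside 25.8% of all genes in either direction and 13.1% lower, and that on MT-ND3 was lost without 48 h NoDox replicate 2 (-0.33, 0.0669). Between 48 h and 12 h it was higher for MT-ND6 (0.59 ± 0.21, adjusted p = 0.0336), beside 34.4% of all genes in either direction and 17.7% higher, a call lost with library totals (0.34, 0.218), where the median of all genes moved by -0.254 and 3 other members were called lower (MT-CO2 at -0.42, MT-ATP6 at -0.36 and MT-ND3 at -0.50). It was also lost without 12 h Dox replicate 3 (0.49), 12 h NoDox replicate 2 (0.50), 48 h Dox replicate 2 (0.44) or 3 (0.58), or 48 h NoDox replicate 2 (0.59) or 3 (0.53). These differences share libraries with the comparisons at single times.

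The uninduced cultures themselves moved away from day 10. At 12 h, 7 of 15 members differed from day 10, beside 31.8% of all genes. MT-RNR2 had 2618, 2397 and 2586 CPM in 12 h NoDox cultures, against 5658, 4494 and 4447 CPM at day 10 (-0.94 ± 0.10, edgeR adjusted p = 2.8e-08). MT-CO1 had 4321, 4278 and 4579 CPM in 12 h NoDox cultures, against 6731, 6032 and 6045 CPM at day 10 (-0.51 ± 0.07, adjusted p = 3.0e-06). In both, every 12 h library lay below every day 10 library. MT-CO2 (-0.42 ± 0.11), MT-ND1 (-0.33 ± 0.08), MT-CO3 (-0.25 ± 0.07) and MT-RNR1 (-0.49 ± 0.16) were lower too. MT-CYB, the cytochrome b of complex III, was higher, with 1373, 1312 and 1443 CPM in 12 h NoDox cultures, against 940, 1264 and 1267 CPM at day 10 (0.25 ± 0.09, adjusted p = 0.0397). The first day 10 library was low for MT-CYB and high for MT-RNR1 (688 CPM, against 497 and 484 CPM). Without it both calls were lost, at 0.12 (adjusted p = 0.294) for MT-CYB and -0.31 (0.175) for MT-RNR1. They were also lost without NoDox replicate 3 (0.21 for MT-CYB, -0.44 for MT-RNR1), and without NoDox replicate 1 for MT-CYB (0.25, 0.0848) or replicate 2 for MT-RNR1 (-0.47, 0.0803). MT-CYB was not called with library totals (0.25, 0.0614) or with the 2 groups fitted alone (0.25, 0.0892), nor MT-RNR1 without the filter on low counts (-0.47, 0.0933).

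At 24 h 11 of 15 members were lower than at day 10 and none was higher, beside 17.3% of all genes called in either direction, 8.47% lower and 8.84% higher. Both rRNA genes and 9 protein genes were among them, and the largest decreases were those of MT-ND6 (-1.12 ± 0.15, edgeR adjusted p = 2.3e-05) and MT-ND1 (-0.90 ± 0.08, adjusted p = 2.2e-09). MT-ND4, MT-ND4L, MT-ND5 and MT-CYB were not called, with fold changes of -0.18 to -0.0029. MT-RNR1 (-0.66 ± 0.16) was no longer called without day 10 replicate 1 (-0.48, adjusted p = 0.0689).

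At 48 h all 13 protein genes were lower than at day 10 and neither rRNA gene was called, beside 41.7% of all genes called in either direction and 20.2% called lower. MT-ND1 had 636, 624 and 633 CPM in 48 h NoDox cultures, against 1508, 1536 and 1534 CPM at day 10 (-1.27 ± 0.08, edgeR adjusted p = 6.1e-13). MT-CYB had 461, 528 and 557 CPM in 48 h NoDox cultures, against 940, 1264 and 1267 CPM at day 10 (-1.17 ± 0.09, adjusted p = 2.4e-10). MT-ATP8 had 112, 149 and 124 CPM in 48 h NoDox cultures, against 250, 288 and 293 CPM at day 10 (-1.11 ± 0.13, adjusted p = 1.7e-06). The groups were apart in each of these. The size of the decrease varied within complex I, from -1.27 in MT-ND1 and -1.23 in MT-ND2 to -0.40 in MT-ND5, -0.43 in MT-ND4L and -0.22 in MT-ND4, the last not called without day 10 replicate 2 (-0.18, adjusted p = 0.0728). In complex IV, the fold change was -0.46 for MT-CO1, -0.85 for MT-CO2 and -0.82 for MT-CO3. MT-RNR1 (-0.01) and MT-RNR2 (-0.08) were not called. The 3 comparisons with day 10 share its libraries.

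**Figure D4:**
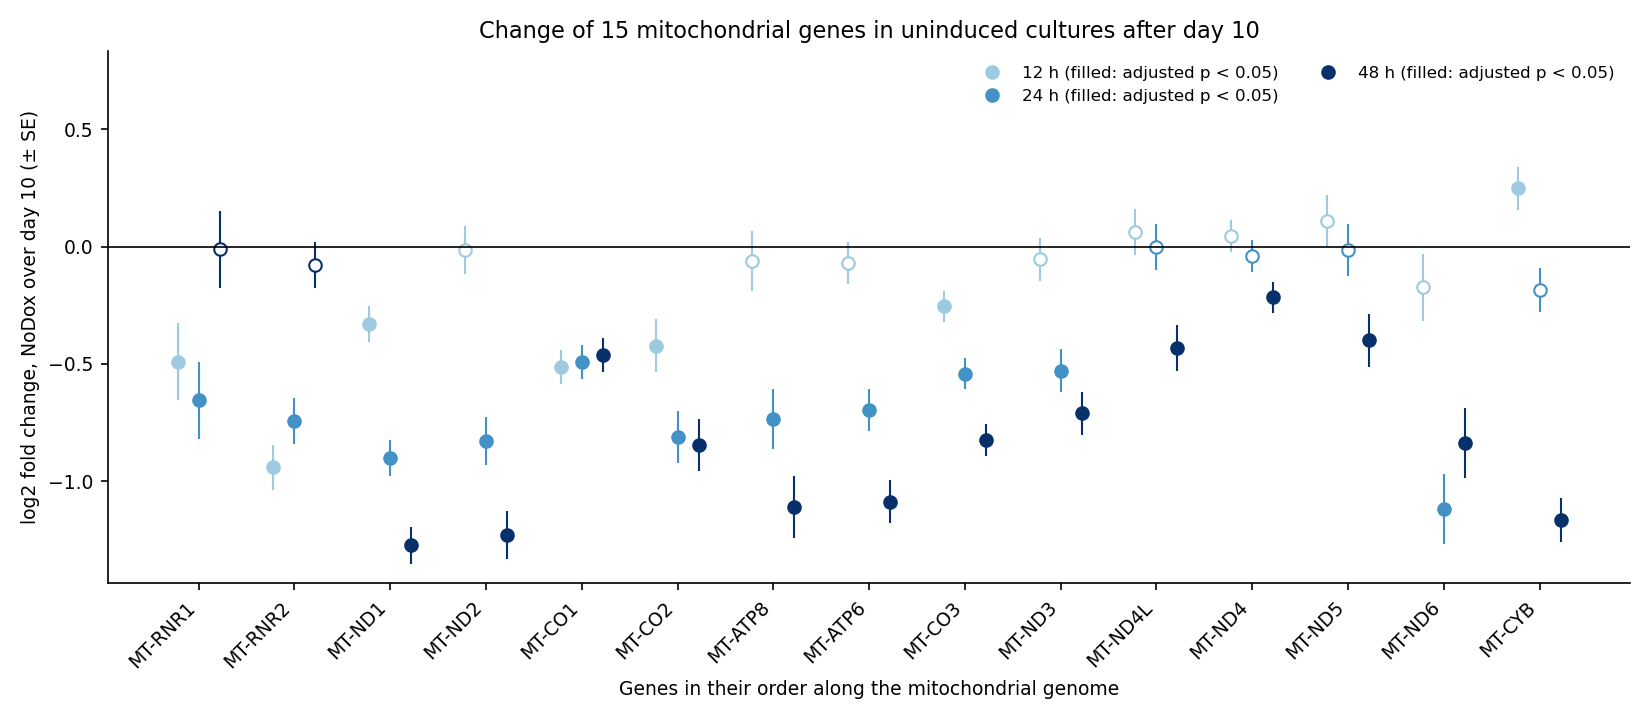
Log2 fold change of NoDox cultures over day 10 at 12, 24 and 48 h for the 15 tested members in genome order; bars are the approximate standard error (n = 3 per group), filled points adjusted p below 0.05. Both rRNA genes lie below 0 at 12 h and 24 h and near 0 at 48 h (-0.01 and -0.08), while the protein genes run from -1.27 to -0.22 at 48 h.

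The step between 24 h and 48 h, a comparison added after the values had been seen, separated the classes in both arms. In Dox cultures both rRNA genes were higher and 11 of 13 protein genes lower at 48 h than at 24 h, 13 of 15 members beside 58.9% of all genes (29.4% called higher and 29.5% lower). In NoDox cultures both rRNA genes were higher and 9 protein genes lower, 11 of 15 beside 41.4% of all genes (21.5% called higher and 19.9% lower). MT-RNR1 rose by 0.87 ± 0.16 (edgeR adjusted p = 2.0e-04) in Dox cultures and by 0.64 ± 0.16 (adjusted p = 0.00459) in NoDox cultures. MT-RNR2 rose by 0.81 ± 0.10 (adjusted p = 4.4e-08) in Dox cultures and by 0.67 ± 0.10 (adjusted p = 4.0e-06) in NoDox cultures. MT-CYB had the largest decrease among the members in both arms, with 449, 494 and 509 CPM at 48 h against 1005, 1164 and 1055 CPM at 24 h in Dox cultures (-1.15 ± 0.09, adjusted p = 5.4e-11). In NoDox cultures it had 461, 528 and 557 CPM at 48 h against 1054, 975 and 1026 CPM at 24 h (-0.98 ± 0.09, adjusted p = 5.9e-09). MT-CO1 was not called in either arm (0.05 in Dox and 0.03 in NoDox cultures), and neither was MT-ND6 (-0.02 in Dox and 0.28 in NoDox cultures). Among the members called, MT-ND4 was lower by the smallest amount (-0.16 in Dox and -0.18 in NoDox cultures). Its call was lost without 24 h replicate 2 or 3 or 48 h replicate 1 or 2 in the Dox arm, and without any 1 of the 6 libraries in the NoDox arm. The call on MT-ATP8 in NoDox cultures (-0.38 ± 0.13) was lost without 24 h replicate 3 (-0.34) or 48 h replicate 1 (-0.29) or 3 (-0.35). With library totals the median of all genes moved by -0.157 in the Dox arm, and the rRNA genes were still above 0 (0.66 and 0.72) and the 13 protein genes below it. In the NoDox arm it moved by -0.0956, the rRNA genes were above 0 (0.55 and 0.57), 12 protein genes lay below it and MT-ND6 lay above it (0.18, not called).

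**Figure D5:**
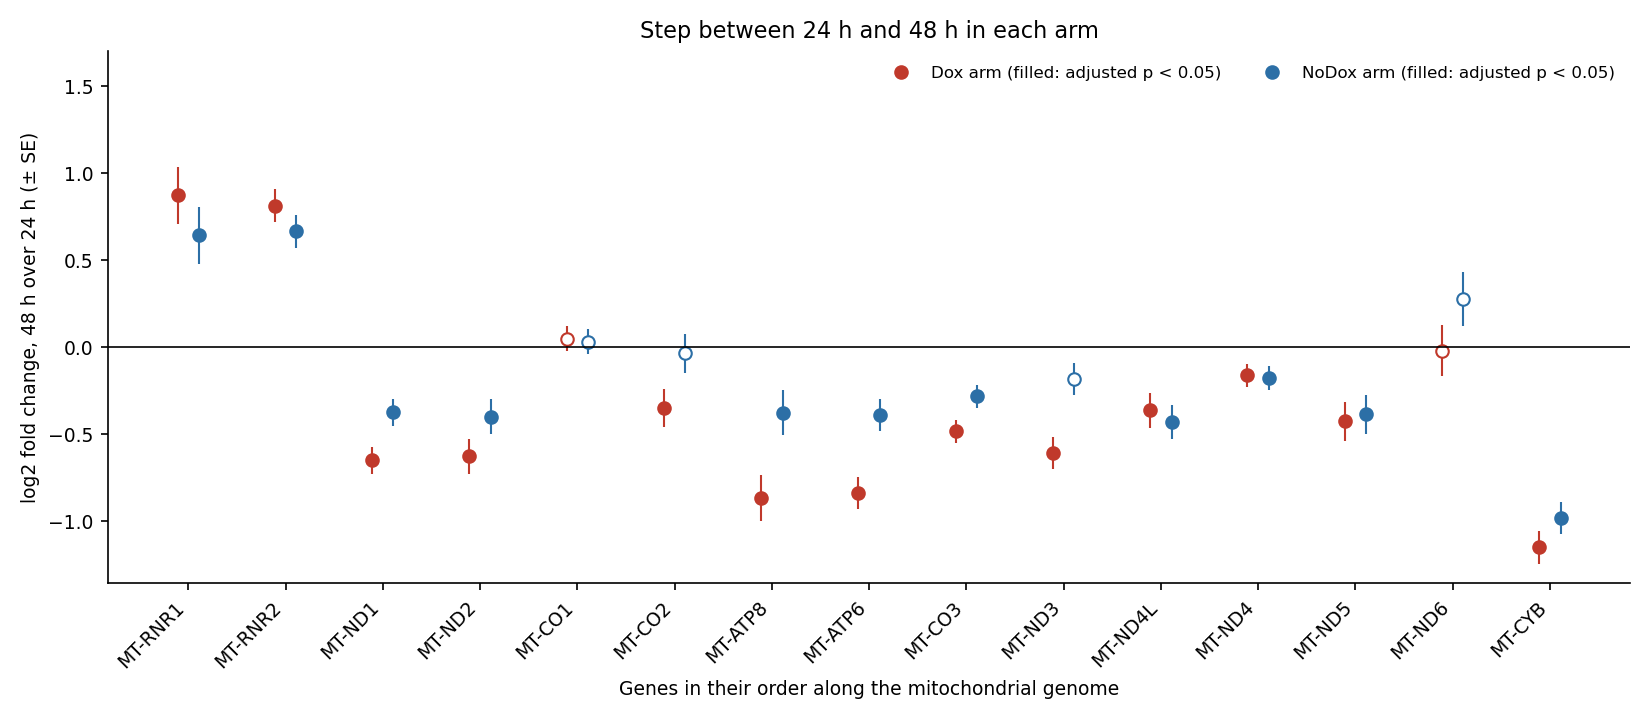
Log2 fold change of 48 h over 24 h in Dox and in NoDox cultures for the 15 tested members in genome order; bars are the approximate standard error (n = 3 per group), filled points adjusted p below 0.05. Both rRNA genes lie at 0.64 to 0.87 and MT-CYB at -1.15 and -0.98, with MT-CO1 near 0 in both arms.

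Ratios per kilobase within a library do not depend on scaling. MT-CYB over MT-CO1 was 0.432 ± 0.0466 in Dox and 0.423 ± 0.00787 in NoDox cultures at 12 h, and 0.316 ± 0.0199 in Dox and 0.309 ± 0.0121 in NoDox cultures at 24 h. At 48 h it was 0.137 ± 0.00552 in Dox and 0.153 ± 0.0153 in NoDox cultures, against 0.252 ± 0.0546 at day 10. The ratio was thus lowest at 48 h in both arms, and the Dox and NoDox ranges overlapped at each time. MT-ND6 over MT-ND5, its neighbour on the other strand, was 0.0889 ± 0.00708 in Dox and 0.0553 ± 0.0110 in NoDox cultures at 24 h, with no overlap. At 12 h this ratio was 0.0971 ± 0.00575 in Dox and 0.0980 ± 0.0185 in NoDox cultures, with overlapping ranges. At 48 h it was 0.118 ± 0.0208 in Dox and 0.0876 ± 0.0125 in NoDox cultures, again with no overlap. The overlapping pairs had group means of 0.458 to 0.513 for MT-ATP8 over MT-ATP6 and 0.344 to 0.410 for MT-ND4L over MT-ND4. Single libraries ran more widely, from 0.437 to 0.575 for MT-ATP8 over MT-ATP6 and from 0.298 to 0.443 for MT-ND4L over MT-ND4. The 12 h Dox libraries alone had 0.435, 0.370 and 0.298 for the latter. How reads on overlapping genes were assigned, and which strand setting was used, is not given in the sources used here. Values of these pairs, and of MT-ND6 opposite any minor transcript of the other strand, are uncertain to that extent.

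Nuclear copies of mitochondrial sequence could share reads with the members. Of 404 features named as such copies, 145 had reads, and they held 102319 reads in all libraries against 9918144 on the mitochondrial genes, 1.02% of the sum. MTATP6P1, the copy of MT-ATP6 on chromosome 1, took 10.2% to 13.8% of the reads on it and MT-ATP6 together. MTND2P28 took 2.76% to 3.96% of those on it and MT-ND2. In the Dox comparisons at 12, 24 and 48 h none of the 5 copies tested was called. MTATP6P1 had fold changes of 0.12, 0.30 and -0.33 at 12, 24 and 48 h, beside -0.01, 0.33 and -0.12 for MT-ATP6. Between 48 h and 24 h the Dox effect on MTATP6P1 was called lower (-0.63 ± 0.19, edgeR adjusted p = 0.0202), as was that on MT-ATP6 (-0.45). The part of shared reads in the values of MT-ATP6 was not tested.

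Nuclear genes that act on mitochondrial RNA were read alongside, from lists chosen with earlier results of these data known. The shares of all genes called in Dox cultures, beside which each list stands, were 39.7% at 12 h (19.8% higher and 19.9% lower), 33.9% at 24 h (17.0% higher and 16.9% lower) and 18.2% at 48 h (9.23% higher and 8.94% lower). No difference between a list and all genes was tested. Of 20 genes for RNA processing and decay, 5 were lower and none higher in Dox cultures at 12 h. This was a smaller share than the 39.7% of all genes called in either direction, but larger than the 19.9% called lower. At 24 h 10 were higher and 1 lower (median 0.24), a larger share than 33.9%, and at 48 h 1 was higher, a smaller share than 18.2%. LRPPRC, the mRNA stabiliser, was lower at 12 h (-0.25 ± 0.06) and not called at 24 h (0.12) or 48 h (0.15). REXO2, an oligoribonuclease, was higher at 24 h (0.79 ± 0.10), as were TBRG4, an mRNA-binding FASTK-family protein (0.54 ± 0.06), ELAC2, the tRNA 3′ endonuclease (0.42 ± 0.06), and PNPT1, the polynucleotide phosphorylase of the degradosome (0.41 ± 0.08). Both TBRG4 (-0.32 ± 0.06) and PNPT1 (-0.22 ± 0.08) were lower at 12 h.

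Of 15 genes for mitochondrial transcription and replication, 2 were higher and 2 lower at 12 h, 5 higher at 24 h and 1 higher at 48 h in Dox cultures. The share called was below that of all genes at 12 h (39.7%) and 48 h (18.2%) and near it at 24 h (33.9%), where all 5 were higher, beside 17.0% of all genes. TWNK, the mitochondrial DNA helicase, was lower at 12 h (-0.41 ± 0.11) and higher at 24 h (0.87 ± 0.11). TOP1MT, the mitochondrial topoisomerase (0.60 ± 0.08), TFB2M, the transcription initiation factor (0.51 ± 0.14), and POLRMT, the RNA polymerase (0.24 ± 0.06), were higher at 24 h. TFAM, which packages the genome, was not called at 12, 24 or 48 h (-0.12, 0.03 and -0.17), and neither was MTERF1 (0.09, 0.07 and -0.16).

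Of 20 translation factors, 2 were higher and 3 lower at 12 h, 3 higher at 24 h, and 1 higher and 2 lower at 48 h, each a smaller share than that of all genes (39.7%, 33.9% and 18.2%). C1QBP, a matrix protein needed for translation, was lower at 12 h (-0.34 ± 0.08) and higher at 24 h (0.55 ± 0.08). Names of the mitochondrial ribosomal protein pattern gave 85 tested features, a set that also holds pseudogenes and divergent transcripts. Of these 6 were higher and 12 lower at 12 h, 16 higher and 4 lower at 24 h, and 3 higher and 1 lower at 48 h, again each a smaller share than that of all genes, though the share higher at 24 h was close to the 17.0% of all genes. MRPL24 (0.72 ± 0.12) and MRPL12 (0.59 ± 0.12) were among those higher at 24 h. Of 23 nuclear subunits of the respiratory chain, 3, 2 and 3 were called at 12, 24 and 48 h, with medians of -0.01, 0.02 and -0.01, and each share lay below that of all genes. CYCS, cytochrome c, was lower at 48 h (-0.49 ± 0.08).

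Of 13 mitochondrial proteases and chaperones, 4 were lower at 12 h, 5 higher at 24 h, and 4 higher and 1 lower at 48 h. Beside 39.7%, 33.9% and 18.2% of all genes, the share called in either direction was smaller at 12 h, close at 24 h and larger at 48 h. All 4 calls at 12 h were lower, a larger share than the 19.9% of all genes called lower. All 5 at 24 h were higher, a larger share than the 17.0% called higher. HSPD1, the matrix chaperonin, was lower at 12 h (-0.36 ± 0.07), and HSPA9, the matrix HSP70, was lower at 12 h (-0.21 ± 0.06) and higher at 24 h (0.30 ± 0.06). Among 15 tested genes of the integrated stress response, which cells raise when mitochondrial translation fails among other causes, 7 were higher and 3 lower at 12 h. At 24 h 6 were higher and 3 lower, and at 48 h 4 were lower. Each share was larger than that of all genes (39.7%, 33.9% and 18.2%). CHAC1, a glutathione-degrading target of ATF4, was higher at 12 h (1.21 ± 0.15) and lower at 24 h (-0.59 ± 0.20) and 48 h (-1.08 ± 0.23). ASNS, the asparagine synthetase, was higher at 12 h (0.83 ± 0.10), and DDIT4, an inhibitor of mTORC1 signalling, was lower at 12 h (-1.45 ± 0.09). Of 16 genes of biogenesis and turnover, 3 were higher and 3 lower at 12 h, 2 higher and 4 lower at 24 h, and 3 lower at 48 h. These shares were close to the 39.7%, 33.9% and 18.2% of all genes called in either direction. The 3 lower at 48 h were a larger share than the 8.94% of all genes called lower. PPARGC1A, a coactivator of mitochondrial biogenesis, was lower at 12 h (-1.34 ± 0.17) and 24 h (-1.61 ± 0.17), while the related PPRC1 was lower at 12 h (-0.70 ± 0.10) and higher at 24 h (1.03 ± 0.10).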

How the data were processed

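Poly-A RNA was measured in 21 libraries made with a directional kit, per the labels' protocols. The authors' deposited count table gives whole read numbers for each gene on hg38. Per the submitters' processing notes, the authors' tools included Subread 2.0.3 and STAR 2.7.9. The sources used here do not give the annotation or the handling of strand, overlapping genes and reads with several matches. The authors' second table holds normalized counts, a signal that the values show to be the deposited count over 1 factor per library. It lists 15 members and was used as a check. The gene lengths in the deposited count table were used per kilobase.

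Counts of all features entered 1 robust quasi-likelihood fit in edgeR 4.0.16 under R 4.3.3, scaled by TMM after filterByExpr. The 7 groups left 14 residual degrees of freedom, and the biological coefficient of variation was 7.24%. The ± of a fold change is its size over the square root of F, an approximate standard error, and 95% intervals use 2.14 of these. Totals ran from 14.4 to 33.8 M counts. Floors cover counting error only. The labels do not say whether replicates came from separate cultures. The p-values therefore cover the spread between these libraries, which may be technical.

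The members and lists were chosen with earlier results of these data known. Representatives of the classes and strands, and up to 6 members called in each Dox comparison, are given in every library; of other lists, up to 4 called genes per Dox comparison. Some genes that this takes are not reported here. The 48 h against 24 h comparisons, and leaving out 12 h Dox replicate 3 with day 10 replicate 1 together, were chosen after seeing the data. As a check of pairing, residuals of same-numbered libraries were correlated over the 11142 genes whose mean reached 10 CPM. At 24 h of Dox and NoDox all 3 were above 0.1 (0.251, 0.122 and 0.114), and in no other comparison. Single pairs were as high or higher elsewhere, with 0.310, 0.213 and 0.0636 for Dox and NoDox at 48 h. NoDox cultures against day 10 had 0.255, 0.0413 and 0.247 at 12 h, and 0.287, 0.0118 and 0.288 at 24 h. The lowest were -0.148 (Dox and NoDox at 12 h) and -0.143 (NoDox at 48 h against day 10). Over all genes no correlation was above 0.1. The main fit held no replicate term. The alternatives tried were library totals, no filter, size factors of DESeq2 in the same fit, the Wald test of DESeq2 1.42.0, a fit of only the groups compared, scaling from genes other than the members, a replicate block, and each library left out. The procedure was tested on simulated data.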

Additional observations from a re-analysis of the deposited data

Results flagged for a closer look

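For 6 genes the difference between Dox and NoDox cultures itself differed between times, by the interaction term of the edgeR fit. These were 5 of 15 members between 24 h and 12 h, beside 30.9% of all genes, 2 between 48 h and 24 h, beside 25.8%, and 1 between 48 h and 12 h, beside 34.4%, so the share of members was close to that of all genes in the first and below it in the other two. From 12 h to 24 h the signed log2 difference, Dox over NoDox, rose by 0.89 for MT-ND6, 0.40 for MT-ND2, 0.35 for MT-ND1, 0.34 for MT-ATP6 and 0.29 for MT-CO3. From 24 h to 48 h it changed by -0.45 for MT-ATP6 and -0.43 for MT-ND3, and from 12 h to 48 h by 0.59 for MT-ND6. The median of the 13 protein genes was -0.08 at 12 h and 0.15 at 24 h, so a rise need not be a larger absolute difference. The TMM factors of Dox cultures were 1.12 to 1.14 at 12 h and 1.00 to 1.01 at 24 h, and with library totals MT-ND6 alone of the 5 was called between 24 h and 12 h, with 0.16, 0.21, 0.15 and 0.09 for MT-ND1, MT-ND2, MT-ATP6 and MT-CO3. Their part in these values was not tested.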

How the results depend on the processing

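Of 468 values of called members under alternatives other than leaving out libraries, 458 kept their direction and stayed past the threshold and 10 kept their direction only; none reversed. Of 493 values with libraries left out, 434 stayed past it and 59 did not, and none reversed. Counts of called members that moved by more than 1.5 times were these. For Dox at 12 h (0), library totals gave 1, no filter 2 and DESeq2's Wald test 1, and leaving out 12 h Dox replicate 3 with day 10 replicate 1 gave 4. For Dox at 24 h (3), fitting only the 2 groups gave 8. For Dox at 48 h (2), library totals gave 1, only the 2 groups 4 and DESeq2 4. For the change of the Dox effect, library totals gave 1 between 24 h and 12 h (5), and 8 were called without both libraries that stood apart. Between 48 h and 24 h (2), library totals, no filter and DESeq2 each gave 5. Between 48 h and 12 h (1), library totals gave 3 (MT-CO2, MT-ATP6 and MT-ND3, all lower, with MT-ND6, higher with TMM, not called), no filter 2, and leaving out both libraries 4. The cause was not tested.

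With each library left out in turn the counts ran from 0 to 4 (Dox at 12 h), 3 to 3 (24 h), 0 to 2 (48 h), 5 to 7, 11 to 12 and 12 to 13 (NoDox at 12, 24 and 48 h against day 10), 1 to 8, 1 to 4 and 0 to 3 (changes of the Dox effect as above), 12 to 13 (Dox 48 h against 24 h), 9 to 11 (NoDox) and 15 to 15 (any difference). The correlations of same-numbered libraries bear on the replicate block. This block left 3 called at 24 h and gave 0 at 12 h and 3 at 48 h, where it added MT-ND6. It also added MT-ATP8 to the change between 48 h and 24 h (3) and moved no other count. At these depths the tRNA genes had 0 to 3 reads per library and were not compared. Whether depth, the poly(A) selection or the short length of these genes set this was not tested.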
